A study of Rattus norvegicus with 6 samples.

Results

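The oxidative phosphorylation genes of the rat PAIII tumor were selected by symbol alone. They were the rows whose symbol began with Nduf (complex I), Uqcr (complex III) or Atp5 (complex V), the 4 genes Sdha to Sdhd (complex II), and the symbols that began with Cox4 to Cox8 (complex IV). The rule found 87 of the 17032 symbols in the expression table, on 88 of its 17557 rows: 42 for complex I, 4 for complex II, 7 for complex III, 17 for complex IV and 17 for complex V. Of these, 76 encode subunits of the mature complexes, and the others are assembly factors, a pseudogene, or other proteins that are not subunits of the mature complexes. Atp5f1 was on 2 rows, and the row with the higher mean was kept.

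Oxidative phosphorylation takes place in the inner mitochondrial membrane. Complexes I and II feed electrons from NADH and succinate to ubiquinone, complex III passes them to cytochrome c, and complex IV passes them to oxygen. Complexes I, III and IV pump protons as they do so, and complex V, the ATP synthase, lets the protons flow back and makes ATP. Most subunits are encoded in the nucleus, and every complex other than II also holds subunits encoded by mitochondrial DNA, which in complex V lie in the membrane part. These mitochondrial genes were not analysed here.

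The study asked how digitoxin, a cardiac glycoside that inhibits the sodium-potassium ATPase, changed messenger RNA in a castration resistant prostate tumor. PAIII is a transplanted tumor line that arose in the prostate of a Lobund-Wistar rat. Its cells were placed under the skin of the right flank of immunologically intact Lobund-Wistar rats aged 2 months. Rats A1, A6 and A12 received digitoxin at 0.03 mg/kg each day into the peritoneum from day 10 and rats B5, B9 and B14 received vehicle, and all tumors were taken on day 40. The 3 vehicle rats were picked from controls with high serum IL-6 and CINC-1 and the 3 digitoxin rats from treated animals with low values, so treatment and this selection cannot be told apart. Each library came from 10 punches of 1 mm diameter, pooled from viable areas of 300 micron sections of 1 tumor.

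The values are FPKM, the sequenced fragments of a gene per kilobase of its transcript, scaled to the size of the library, so levels of different genes are compared per length. The table gives no counts, and the depth behind each value is unknown. Total FPKM ran from 651234 in B14 to 1025100 in A6, so a tumor's FPKM values are not on quite the same scale as another's. All libraries held high vimentin and keratin RNA (Vim 1117 to 1975 FPKM, Krt8 398 to 2095). Of 2 prostate secretory genes, Acpp measured 2.33 to 6.28 FPKM and Pbsn was listed at 0 in all tumors. A listed 0 can be a failed estimate, since Surf1 and Tpi1, genes that nearly every cell uses, were listed at 0 in 6 and 5 tumors. Markers of lung were very high in 4 of the 6 libraries, although the methods describe tumors of the flank, and where this RNA came from was not tested. The summed FPKM of 11 alveolar markers was 52094 in A1, 85708 in A6, 28115 in B5 and 36409 in B9, against 42.1 in A12 and 64.4 in B14, where 4 and 5 of the 11 were listed at 0. A12 and B14 also stood apart by a higher sum of hypoxia and glycolysis genes, and A6 by a low sum of proliferation genes, as given with those lists further on. In pooled tissue, fewer cells of a type and less RNA per cell cannot be told apart.

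Oxidative phosphorylation genes were among the more abundant transcripts of the tumors. The median member had a mean of 176 FPKM, against 17.0 over the 10742 rows that averaged 1 FPKM or more, and 39 of the 85 members above that minimum were in the upper 5% of rows. Complex V genes led with a median of 545 FPKM, followed by complex IV with 269, complex II with 165, complex III with 157 and complex I with 125. The most abundant gene of each complex was Atp5i, the e subunit of ATP synthase (1883 FPKM), Cox6c of cytochrome c oxidase (1389), the complex III hinge protein Uqcrh (670), the accessory subunit Ndufb2 of complex I (510) and the membrane anchor Sdhd of complex II (178). The 4 complex II genes lay close together, from 84.7 to 178 FPKM, while the other complexes held genes that were more than 10-fold apart. Assembly factors of complex I were far below its subunits, with a median of 14.2 FPKM against 104 for the 7 core subunits and 176 for the 27 accessory subunits.

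The summed FPKM of the 87 genes was 26356, 36952 and 24089 in A1, A6 and A12, and 31492, 22467 and 20678 in B5, B9 and B14. A6 and B5, one from each group, held the highest sums. As a share of all FPKM the genes took 3.24%, 3.605% and 3.51% in the digitoxin tumors and 3.76%, 3.13% and 3.18% in the vehicle tumors, in the same order. All FPKM held unequal amounts of lung RNA. Alveolar markers summed to between 42.1 FPKM in A12 and 85708 in A6, and airway markers to between 1.56 in B14 and 130859 in A6. How far this moved the shares was not tested. The mean share was 3.45% ± 0.191 (SD, n = 3) with digitoxin and 3.36% ± 0.352 (SD, n = 3) with vehicle, a difference of 0.0943 percentage points that was smaller than either spread. The makeup of the sum varied little: complex V took 37.1% to 40.5% of it, complex IV 25.5% to 28.8%, complex I 24.6% to 25.9%, complex III 6.46% to 6.78% and complex II 1.81% to 2.72%.

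**Figure D1:**
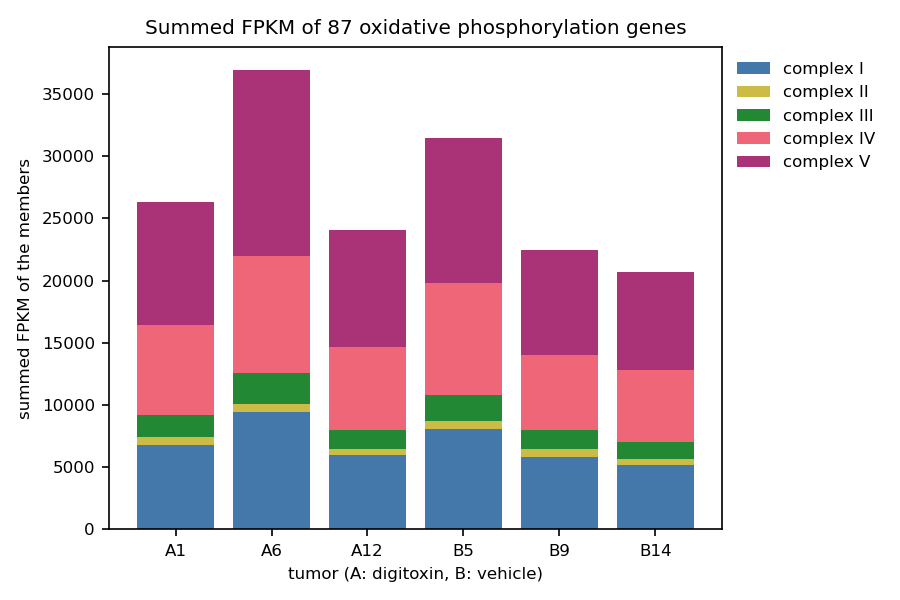
Summed FPKM (vertical axis, from 0) of the 87 oxidative phosphorylation genes in each tumor, with 1 bar per tumor and the bar divided by complex. A6 (36952) and B5 (31492) are the tallest bars, and the divisions keep nearly the same proportions in all 6 tumors.

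Members varied less between tumors than the typical row, as other mitochondrial lists did too. The ratio of a gene's highest to its lowest tumor had a median of 1.85 over the members with no 0, against 2.78 over all rows, and it was under 2 for 57.1% of members against 32.3% of all rows. The median ratio was 1.66 for citrate cycle genes and 1.69 for assembly factors outside the name rule, so a small ratio was not particular to the members. Ndufv1, the core subunit of complex I that binds NADH, had the smallest ratio, 1.15: it measured 103, 100.9 and 109 FPKM in A1, A6 and A12 and 101.01, 99.6 and 94.9 FPKM in B5, B9 and B14.

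Tumors of the same group lay far apart. After each gene's log2(FPKM + 1) was centred on its mean over the 6 tumors, the median member stood at 0.012, 0.36 and -0.064 in the digitoxin tumors A1, A6 and A12 and at 0.22, -0.16 and -0.27 in the vehicle tumors B5, B9 and B14. A6 was the highest of the 6 tumors for 43 of 85 members and B14 was the lowest for 44. Over all rows A6 was the highest for 23.9% and the lowest for 50.5%, so the members stood high in the tumor where most rows stood low. Complexes I, II, IV and V followed the same order of extremes. Their medians were 0.37, 0.23, 0.47 and 0.27 in A6 and -0.32, -0.26, -0.25 and -0.22 in B14. Complex III did not have its highest median in A6: its medians were -0.16, -0.018 and 0.21 in A1, A6 and A12, and 0.22, -0.14 and -0.13 in B5, B9 and B14. Complex II medians were 0.038, 0.23 and -0.072 in A1, A6 and A12, and 0.11, 0.055 and -0.26 in B5, B9 and B14.

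**Figure D2:**
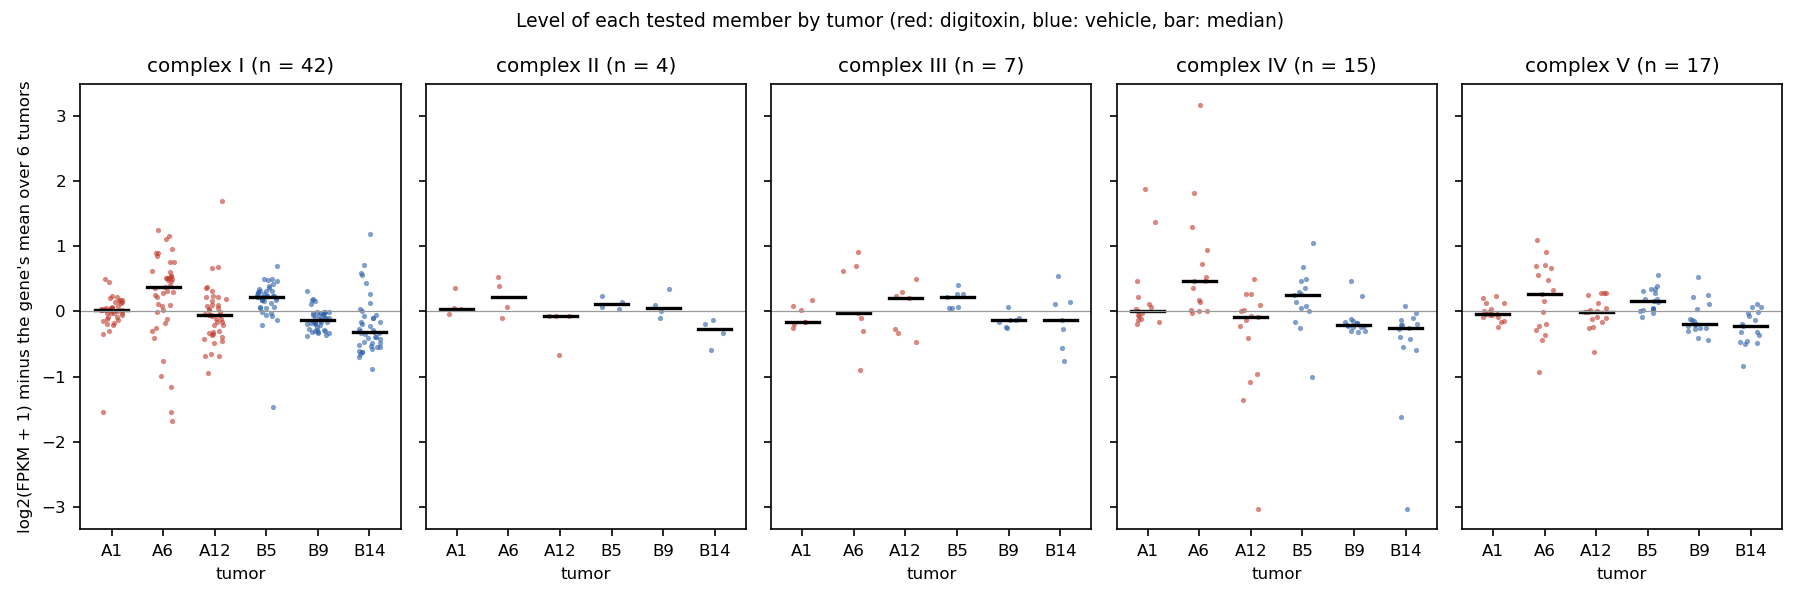
Log2(FPKM + 1) of each tested member minus that gene's mean over the 6 tumors (vertical axis), by tumor and complex, with digitoxin tumors in red, vehicle tumors in blue and a bar at each median. The A6 medians of complexes I, II, IV and V (0.37, 0.23, 0.47 and 0.27) are the highest of their panels, and the points of the groups overlap in every panel.

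Digitoxin and vehicle tumors were compared with limma on log2(FPKM + 1), with p-values adjusted over all 10742 rows. The test covered 85 members. Cox6c-ps1, a pseudogene, was listed at 0 in all tumors, and the testis isoform Cox8c was listed at 0 apart from 0.313 FPKM in B5. No member passed an adjusted p of 0.05, where the share of all rows called was 0%, and the smallest adjusted p of a member was 0.926. At an unadjusted p under 0.05, 0 members and 36 rows (0.335%) were called. With the replicate number as a block these became 1 member, Cox6a2 (log2 fold change 0.98, unadjusted p = 0.043 by limma), and 447 rows, and still no row passed the adjusted threshold.

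By direction, 63 members had a higher and 22 a lower mean log2 level with digitoxin, whereas 64.9% of all rows were lower. The median log2 fold change was 0.16 for the members and -0.16 for all rows, a gap of 0.33. With median-of-ratios scaling the median of all rows was 0.018 and 48.5% of them were lower, and 75 members were higher and 10 lower. Without A6, 53 members were higher and 32 lower, and their median was 0.032 against -0.082 for all rows. Without B14 the medians were 0.041 for the members and -0.23 for all rows, a gap of 0.27. They were 0.30 and -0.18 without B5, 0.10 and -0.12 without B9, 0.20 and -0.23 without A1, and 0.24 and -0.22 without A12.

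**Figure D3:**
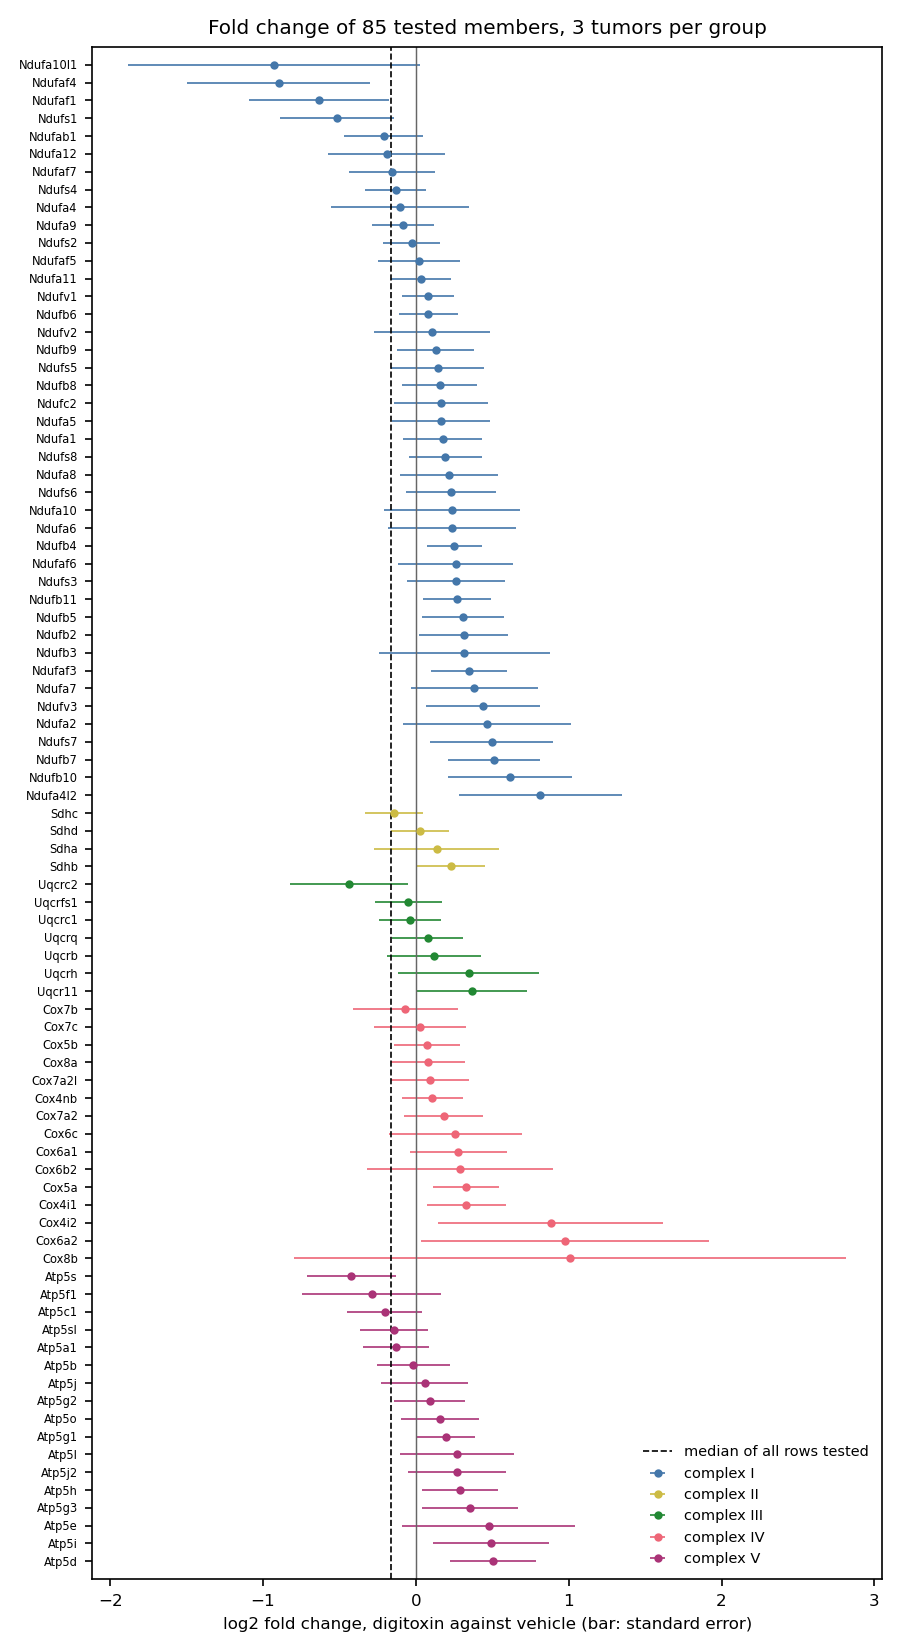
Log2 fold change on the log2(FPKM + 1) scale, digitoxin against vehicle (horizontal axis), of the 85 tested members grouped by complex, with the limma standard error as bars (3 tumors per group). Most points lie right of 0 and of the dashed median of all rows (-0.16), and no member passed the adjusted test.

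Groups that did not overlap were rare. Every digitoxin tumor was above every vehicle tumor for 5 members, where 0.903% of all rows did the same, and below it for 1, against 3.26% of all rows. The 5 were Atp5g1, Cox5a, Ndufaf3, Ndufb11 and Ndufb4, and the 1 was Atp5s. These counts turned on single tumors: without A12 they were 14 and 11 (15.9% and 34.9% of all rows), without B5 they were 33 and 1 (3.31% and 10.002%), and without B14 they were 6 and 4 (2.24% and 8.17%).

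Complex I, which takes electrons from NADH, had 31 members higher and 11 lower by symbol, with a median log2 fold change of 0.17. These include Ndufa4 and Ndufa4l2, which are counted with complex IV. The 34 mature subunits of complex I were higher in 27 cases (median 0.18). The 27 accessory subunits among them were higher in 22 cases (median 0.21) and the 7 nuclear core subunits in 5 (median 0.11). The 6 assembly factors of complex I were higher in 3 cases (median -0.069). Ndufb4, an accessory subunit of the membrane arm, measured 118, 140 and 137 FPKM in A1, A6 and A12 and 110, 113 and 107 FPKM in B5, B9 and B14. Its group means were 131 ± 12.2 and 110 ± 3.16 FPKM (SD, n = 3), with a log2 fold change of 0.25 (SE 0.18). The groups did not overlap, but the gap between A1 and B9 was only a few FPKM. Ndufb11, also of the membrane arm, measured 195, 279 and 192 FPKM against 190, 183 and 171 FPKM, so that A1 and A12 lay just above B5.

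Ndufaf3 and Ndufaf4 are assembly factors that act together early in the building of complex I, and their values ran in opposite directions. Ndufaf3 measured 28.0, 39.9 and 26.1 FPKM in A1, A6 and A12 and 26.1, 24.3 and 21.8 FPKM in B5, B9 and B14, a log2 fold change of 0.35 (SE 0.25), and A12 (26.127) and B5 (26.093) all but touched. Ndufaf4 measured 12.4, 4.28 and 26.0 FPKM against 20.0, 20.1 and 26.8 FPKM, a log2 fold change of -0.90 (SE 0.60) that was -0.28 without A6 and -1.46 without A12. A6 was the highest tumor for Ndufaf3 and the lowest for Ndufaf4, and neither gene passed the test.

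At the top of the complex I symbols stood Ndufa4l2 (0.82, SE 0.54, with 0.29 without B5 and 1.30 without B14), which is described with the isoforms. Ndufa4l2 is counted with complex IV, and the highest mature complex I subunit was Ndufb10 (0.62, SE 0.41), with A6 its highest tumor. At the bottom stood Ndufa10l1 (-0.93, SE 0.95, with -0.39 without A6 and -2.00 without A12). Ndufa10 and Ndufa10l1 overlap over 34.2 kb of the genome, so reads of one may have been given to the other. Ndufa10 measured 17.0, 29.3 and 9.10 FPKM in A1, A6 and A12 and 16.1, 15.2 and 11.2 FPKM in B5, B9 and B14. Ndufa10l1 measured 3.2e-05, 8e-06 and 8.38 FPKM against 2.40, 1.87 and 5.63 FPKM. Their sum was 17.0, 29.3 and 17.5 FPKM against 18.5, 17.1 and 16.8 FPKM, so tumors other than A6 nearly agreed once the pair was added.

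Complex II, succinate dehydrogenase, also belongs to the citrate cycle. Its 4 genes had a median log2 fold change of 0.083, with 3 higher and 1 lower. Sdhb, the iron-sulfur subunit, measured 161, 207 and 150 FPKM in A1, A6 and A12 and 166, 148 and 126 FPKM in B5, B9 and B14 (log2 fold change 0.23, SE 0.22). The membrane anchor Sdhc measured 165, 159 and 162 FPKM against 201, 183 and 156 FPKM (-0.14, SE 0.19). Its partner Sdhd measured 183, 186 and 169 FPKM against 197, 179 and 155 FPKM (0.029, SE 0.19). All 3 overlapped between the groups. Sdha, the flavoprotein that oxidises succinate, was singled out after its values were seen: it measured 50.1 FPKM in A12 and 53.2 in B14, against 82.6 to 116 in the other tumors.

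Complex III, the cytochrome bc1 complex, had 4 members higher and 3 lower with a median of 0.077. The small subunits Uqcr11 and Uqcrh stood highest and the core protein Uqcrc2 lowest. Uqcr11 measured 543, 782 and 381 FPKM in A1, A6 and A12 and 580, 402 and 324 FPKM in B5, B9 and B14 (log2 fold change 0.37, SE 0.36). Uqcrh measured 660, 1168 and 448 FPKM against 824, 556 and 366 FPKM (0.35, SE 0.46). Uqcrc2 measured 94.8, 60.6 and 161 FPKM against 118, 119 and 167 FPKM (-0.44, SE 0.39, with -0.10 without A6 and -0.80 without A12). A6 was thus the highest tumor for Uqcr11 and Uqcrh and the lowest for Uqcrc2, within 1 complex.

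Complex IV, cytochrome c oxidase, had the highest median, 0.26, with 14 of 15 members tested by symbol higher and Cox7b lower (-0.069, SE 0.34). The 14 include Cox4nb and Cox7a2l, which are not subunits of the mature complex. With these left out and Ndufa4 and Ndufa4l2 counted in, 13 were higher and 2 lower (median 0.28). Without B5 the complex I median (0.34) was above that of complex IV (0.30). Cox5a, a subunit on the matrix side, measured 213, 309 and 239 FPKM in A1, A6 and A12 and 200, 191 and 207 FPKM in B5, B9 and B14. Its group means were 254 ± 49.8 and 200 ± 8.22 FPKM (SD, n = 3), with a log2 fold change of 0.33 (SE 0.22). Cox6c, the most abundant gene of the complex, measured 1381, 2170 and 987 FPKM against 1854, 1071 and 870 FPKM (0.26, SE 0.44). For Cox6c the 2 highest tumors came 1 from each group. Cox7b measured 616, 719 and 543 FPKM against 1022, 572 and 476 FPKM, with B5 far above the rest. Cox7a2, the widespread form of subunit 7a, measured 61.0, 68.5 and 99.4 FPKM against 77.6, 62.1 and 58.8 FPKM (0.18, SE 0.26).

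Complex V, the ATP synthase, had a median of 0.16, with 11 members higher and 6 lower. Atp5d, the delta subunit, had the smallest unadjusted p of all members, 0.123 by limma (adjusted p = 0.926). It measured 387, 580 and 335 FPKM in A1, A6 and A12 and 358, 266 and 276 FPKM in B5, B9 and B14, a log2 fold change of 0.50 (SE 0.28). A12 lay below B5, so the groups overlapped. Atp5i measured 1600, 3350 and 1780 FPKM against 1828, 1459 and 1283 FPKM (0.49, SE 0.38), with A6 far above the other tumors. Atp5s, named coupling factor B and no subunit of the purified enzyme, measured 3.88, 3.75 and 4.38 FPKM against 6.60, 5.90 and 4.71 FPKM (-0.42, SE 0.29).

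Atp5g1, Atp5g2 and Atp5g3 encode the same mature c subunit, the ring that turns in the membrane, behind different import sequences. Atp5g1 measured 236, 233 and 285 FPKM in A1, A6 and A12 and 231, 211 and 214 FPKM in B5, B9 and B14 (log2 fold change 0.20, SE 0.19). The groups did not overlap, with A6 only slightly above B5. Atp5g3 measured 502, 729 and 388 FPKM against 513, 399 and 332 FPKM (0.35, SE 0.32). Atp5g2, the most abundant of them, measured 807 to 1046 FPKM over the 6 tumors. Atp5f1, the b subunit of the stalk, was on 2 rows with means of 1.67 and 0.176 FPKM, far below the other subunits of an enzyme that cannot be built without it. Such values can be failed estimates, so its fold change is not described.

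Many of these fold changes leaned on A6. Without it they were 0.27 for Atp5d, 0.16 for Atp5i, 0.11 for Atp5g3, 0.11 for Uqcr11, 0.18 for Cox5a, 0.091 for Ndufb11, 0.17 for Ndufaf3 and 0.094 for Sdhb. Of the other moves of more than 1.5-fold among them, Uqcr11 was 0.62, Atp5g3 0.57 and Atp5g1 0.10 without A12. Without B5, Uqcr11 was 0.59 and Sdhc -0.058, and without B14 Uqcr11 was 0.18, Atp5g3 0.21, Sdhb 0.13 and Sdhc -0.24.

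Several complex IV subunits, and Ndufa4, come as a widespread form and a form restricted to some tissues. Cox4i2 is known from lung, Cox6a2 and Cox8b from heart and skeletal muscle, and Ndufa4l2 from hypoxic cells. In every tumor the widespread form was far above its partner. Cox4i1 measured 977, 1348 and 985 FPKM in A1, A6 and A12 and 982, 782 and 849 FPKM in B5, B9 and B14. Cox4i2 measured 21.4, 56.0 and 7.28 FPKM against 7.09, 18.0 and 10.05 FPKM, a log2 fold change of 0.88 (SE 0.74) that was 0.19 without A6 and 1.59 without A12. It was 3.99% of the pair in A6, the highest tumor, and 0.716% in B5, the lowest.

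Cox6a1 measured 1196, 1683 and 1063 FPKM in A1, A6 and A12 and 1408, 953 and 893 FPKM in B5, B9 and B14. Its partner Cox6a2 measured 14.1, 6.96 and 0.614 FPKM against 4.30, 2.58 and 0.345 FPKM (log2 fold change 0.98, SE 0.94), and the fold change was 0.28 without A1 and 1.90 without A12. A12 and B14 were the lowest tumors of their groups for Cox6a2. Cox8a measured 962, 888 and 888 FPKM against 1057, 787 and 770 FPKM, with a ratio of highest to lowest of 1.37. Cox8b measured 20.1 and 72.2 FPKM in A1 and A6, was listed at 0 in A12, measured 15.8 and 10.3 FPKM in B5 and B9, and was listed at 0 in B14. The 2 tumors at 0 were those with the lowest lung marker sums. The part of other cell types in these isoforms was not tested. The summed FPKM of 18 muscle markers was 123, 36.6 and 163 in A1, A6 and A12 and 159, 97.5 and 136 in B5, B9 and B14. The markers did not share one pattern. Tnnt2, the cardiac troponin T gene and most of the sum outside A6, measured 81.3, 5.73 and 146 FPKM against 135, 63.0 and 99.1 FPKM. The skeletal muscle genes Acta1, Tnnc2, Myl1 and Mylpf were highest in B14, at 4.09 to 6.30 FPKM. Other skeletal muscle genes were not: Tnni2 measured 6.93, 2.01 and 10.1 FPKM against 11.3, 12.1 and 8.42 FPKM, and Tnnt3 was highest in A6 (7.49 FPKM). The cardiac genes Tnni3 (11.1, 13.8 and 0.604 FPKM against 2.53, 4.26 and 1.05) and Actc1 (8.47, 2.51 and 0 against 0.260, 5.40 and 0) were lowest in A12 and B14. These muscle genes other than Tnnt2 and Tnni2 were singled out after their values were seen. Of the 18 markers, 2, 4 and 9 were listed at 0 in the digitoxin tumors and 7, 4 and 4 in the vehicle tumors, in the same order.

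**Figure D4:**
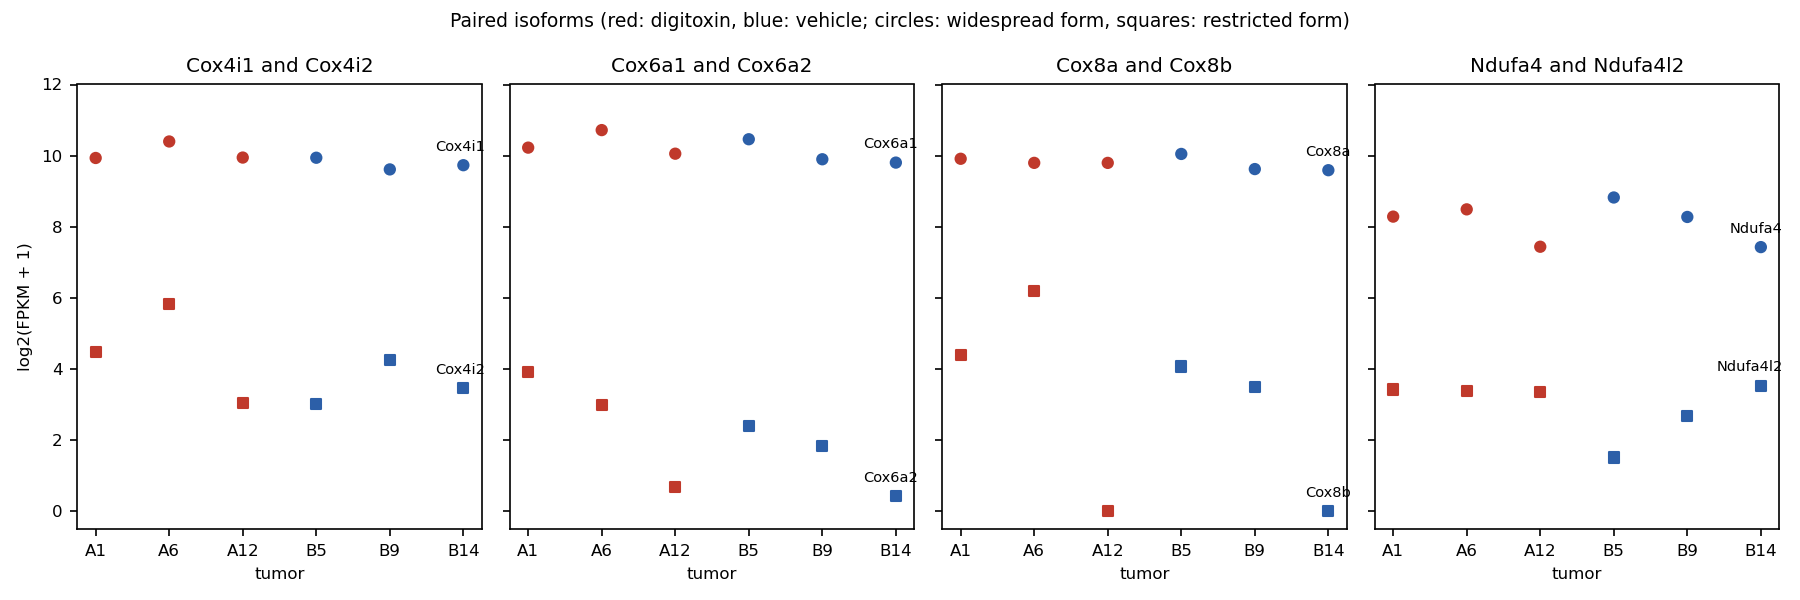
Log2(FPKM + 1) (vertical axis) of the widespread form (circles) and the restricted form (squares) of 4 subunits in each tumor, with digitoxin in red and vehicle in blue. The circles of Cox4i1, Cox6a1 and Cox8a stay within a narrow band, and those of Ndufa4 run from 171 to 452 FPKM. The squares of Cox6a2 and Cox8b drop to or near 0 in A12 and B14.

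Ndufa4, which was first placed in complex I and is now counted with complex IV, measured 311, 358 and 172 FPKM in A1, A6 and A12 and 452, 309 and 171 FPKM in B5, B9 and B14. Ndufa4l2 measured 9.76, 9.45 and 9.20 FPKM against 1.86, 5.36 and 10.6 FPKM. Ndufa4 was thus at its lowest in A12 and B14, while Ndufa4l2 was nearly level over the digitoxin tumors and lowest in B5. Cox6b2, the testis form of subunit 6b, measured 9.14, 20.3 and 3.11 FPKM against 6.30, 6.83 and 7.51 FPKM (log2 fold change 0.29, SE 0.61). Cox6b1, Cox7a1 and Cox7b2 were not analysed here.

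The 250 bases upstream of the start of the widespread Cox4i1 and Cox8a and of the restricted Cox8b and Cox6a2 are shown, 5′ to 3′ on the gene's own strand, as examples of the abundant and the scarce forms of complex IV subunits. Cox8a and Cox8b are partners, and Cox4i1 and Cox6a2 belong to different pairs. Sequences are from RefSeq, build GRCr8. Capitals mark ACTTCCGG, which is CCGGAAGT on the other strand, the core bound by ETS factors such as GABPA, and TATAAA, the TATA box. Cox4i1 lies at chr19:65630133-65630382 (plus strand), Cox8a at chr1:213833624-213833873, Cox8b at chr1:205408274-205408523 and Cox6a2 at chr1:192219717-192219966 (all minus strand).
Cox4i1: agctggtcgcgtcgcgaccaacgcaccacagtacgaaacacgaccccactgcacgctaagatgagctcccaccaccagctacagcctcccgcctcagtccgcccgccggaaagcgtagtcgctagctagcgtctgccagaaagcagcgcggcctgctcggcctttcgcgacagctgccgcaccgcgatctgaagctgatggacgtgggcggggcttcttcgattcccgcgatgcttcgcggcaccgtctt
Cox8a: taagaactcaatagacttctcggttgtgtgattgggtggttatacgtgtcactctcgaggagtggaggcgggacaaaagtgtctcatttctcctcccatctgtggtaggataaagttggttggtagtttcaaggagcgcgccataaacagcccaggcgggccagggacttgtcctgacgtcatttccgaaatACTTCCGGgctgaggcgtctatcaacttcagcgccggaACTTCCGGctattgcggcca
Cox8b: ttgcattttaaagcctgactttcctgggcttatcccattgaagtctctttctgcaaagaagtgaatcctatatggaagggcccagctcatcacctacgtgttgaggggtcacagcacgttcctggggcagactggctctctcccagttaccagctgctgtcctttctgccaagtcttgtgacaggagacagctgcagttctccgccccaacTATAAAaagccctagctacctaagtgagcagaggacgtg
Cox6a2: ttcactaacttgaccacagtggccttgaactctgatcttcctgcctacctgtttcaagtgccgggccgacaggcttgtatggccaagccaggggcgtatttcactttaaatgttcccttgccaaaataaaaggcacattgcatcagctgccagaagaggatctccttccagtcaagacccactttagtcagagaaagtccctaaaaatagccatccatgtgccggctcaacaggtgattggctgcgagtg

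These 2 widespread genes held more CpG pairs than the 2 restricted ones, 31 in the Cox4i1 window and 15 in that of Cox8a, against 4 for Cox8b and 5 for Cox6a2. GC content was 64.8%, 52.4%, 51.2% and 49.6% in that order. Cox8a held the ETS core at 2 places, ending near the start, and Cox8b held a TATA box beginning 39 bases before it. Over the members, 74 had such a window. The NRF1 core GCGCATGC, searched on both strands as were all the motifs, was in 11 of the 74 (14.9%), against 2.48% of 27457 genes. The ETS core CCGGAAGT was in 7 (9.46%) against 3.45%, and TATAAA in 5 (6.76%) against 14.1%. The ERR element TCAAGGTCA was in Atp5g3 alone (1.35% against 0.397%) and the YY1 core AAGATGGCG in Atp5j alone (1.35% against 0.768%). These are matches of letters, and no binding was measured.

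Pairs of tumors with the same replicate number differed. With digitoxin, 19 of 85 members were higher in A1 than in B5 (45.6% of all rows), 66 were higher in A6 than in B9 (32.6%) and 71 were higher in A12 than in B14 (47.4%). The median log2 differences were -0.21, 0.49 and 0.19. A1 against B5 thus ran against the other pairs in every complex, with 0 of 7 complex III members higher, while all 15 tested complex IV members were higher in A6 than in B9.

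The standing of A6 differed between short and long genes. The 43 members for which A6 was the highest tumor spanned a median of 6.42 kb in the genome, and the 17 for which it was the lowest spanned 12.5 kb. When all rows were cut by span into 4 bins of nearly equal size, the centred log2 level of A6 had medians of 0.046, -0.19, -0.44 and -0.53 from the shortest to the longest bin. For the members they were 0.47 in the shortest bin (48 members), 0.29 in the next (23) and -0.097 in the next (13), and the 1 member in the longest, Ndufs4, was at -0.12. In each bin the members stood above all rows in A6, and 48 of 85 members lay in the shortest bin. In B14 the direction was the other way, from -0.15 to 0.24 over all rows and from -0.32 to -0.13 over the 3 shorter bins of members. The part of gene span in the group comparison was not tested.

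**Figure D5:**
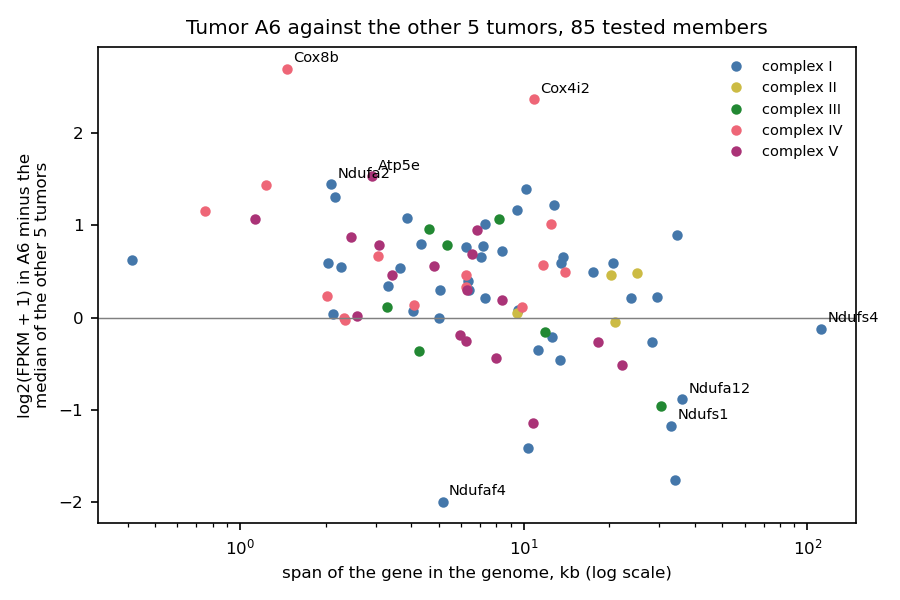
Log2(FPKM + 1) in tumor A6 minus the median of the other 5 tumors (vertical axis) against the span of the gene in the genome in kb (horizontal log axis) for the 85 tested members, coloured by complex. Points above 0 lie mostly at short spans, and Ndufs1, Ndufa12 and Ndufaf4 are among those well below 0.

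Other lists of mitochondrial energy genes had median log2 fold changes from -0.29 to -0.14. All rows had a median of -0.16 with 64.9% lower, and no gene on these lists passed the adjusted test. Of 8 electron carriers and subunits outside the name rule, 4 were higher and 4 lower with digitoxin (median log2 fold change -0.14). Cyc1, the cytochrome c1 subunit of complex III, measured 165 to 188 FPKM with digitoxin and 138 to 197 with vehicle, and Atpif1, the inhibitor of ATP synthase, 444 to 706 and 373 to 600. Of 27 assembly factors outside the rule, 6 were higher and 21 lower (-0.15, which is 0.0093 above the median of all rows). Among them the copper chaperone Cox17 measured 516, 1073 and 300 FPKM in A1, A6 and A12 and 427, 375 and 280 in B5, B9 and B14, and the complex IV assembly factor Coa3 162 to 279 and 200 to 238.

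Regulators of mitochondrial genes were lower in 13 of 14 cases (median -0.26, against -0.16 and 64.9% lower for all rows). A6 was the lowest tumor for 10 of the 14, with a centred log2 median of -0.54, against -0.064 in A1 and 0.16 in A12. They included Tfam, which packages mitochondrial DNA, at 38.0 to 54.8 FPKM with digitoxin and 51.2 to 58.1 with vehicle, and the single-strand binding protein Ssbp1, at 84.2 to 151 and 133 to 212. Citrate cycle genes were lower in 12 of 15 cases (-0.29, with A6 the lowest tumor for 12 at a centred median of -0.48, and A12 at 0.22), although the most abundant, Mdh2 and Suclg1, had log2 fold changes of 0.056 and 0.039. Carriers that export ATP or bring in phosphate were lower in 5 of 7 cases (-0.19). The phosphate carrier Slc25a3 measured 450, 321 and 629 FPKM in A1, A6 and A12 and 488, 487 and 571 in B5, B9 and B14, and the ADP/ATP carrier Slc25a5 202, 126 and 330 against 274, 234 and 310.

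Hypoxia and glycolysis genes were lower in 15 of 16 cases with a median of -0.70, and their summed FPKM was 2639, 1694 and 8577 in A1, A6 and A12 and 4453, 3447 and 8106 in B5, B9 and B14. The glycolytic enzymes Pgk1 (239 to 1550 FPKM) and Aldoa (703 to 2268) were highest in A12 and B14. Proliferation genes were lower in 14 of 14 cases (-1.05), with sums of 647, 167 and 1147 FPKM against 878, 834 and 1068. The lowest sum was in A6, where Cdk1 stood at 15.1 and Pcna at 84.9 FPKM and where the summed FPKM of the oxidative phosphorylation genes, though not their share of all FPKM, was highest.

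The markers of other cell types moved by tumor as well. Alveolar markers were higher in 9 of 11 cases (median 0.57) and airway markers in 7 of 7 (1.67), with Sftpc at 63514 and Scgb1a1 at 129228 FPKM in A6 and at 0.23 and 2.31 FPKM in A12. The airway sum was 55472, 130859 and 2.61 FPKM in A1, A6 and A12 and 20920, 22875 and 1.56 in B5, B9 and B14. Leukocyte markers were lower in 6 of 8 cases (-0.45), muscle markers in 5 of 8 (-0.60) and brown adipose markers in 1 of 3. Without A12 and B14, the tumors with the lowest lung marker sums, 56 members were higher and 29 lower, the median was 0.12 against -0.23 for all rows, and 6 members had an unadjusted p under 0.05 by limma among 1202 rows, with 2 rows but no member past the adjusted threshold. The part of these cell types in the members' levels was not tested.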

How the data were processed

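The authors aligned single-end reads with Bowtie 2 and TopHat 2 and made the deposited FPKM table with Cufflinks, and compared groups with Cuffdiff, which needs reads and was not repeated. Per the labels a human build (hg19) is also listed, and the rat build behind the table is not given in the sources used here. FPKM were used as deposited, every FPKM column was matched to a tumor by name, and the gene spans come from the positions in the table. Depth is unknown, so no counting error can be given.

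Where a symbol had several rows, the one with the highest mean was kept. Rows averaging 1 FPKM or more over the 6 tumors were tested on log2(FPKM + 1) with limma 3.58.1 (lmFit, eBayes with a trend, two-sided) in R 4.3.3, adjusted by Benjamini and Hochberg over all rows tested. The script was tested on simulated data. Tables were made with Python 3.11.15 and pandas 2.3.3. Upstream sequences and gene names came from RefSeq, where 87 of 87 members matched a gene and 74 had a sequence. A motif was counted for a gene if any of its listed windows held it.

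To check whether replicate numbers pair the tumors, each tumor's deviation from its group mean was correlated with that of its namesake: r was 0.43 for number 1 (A1 and B5), 0.606 for number 2 and 0.869 for number 3, over all rows tested. The tests reported have no replicate block, and the fit with one is given where it changed a count. The numbers come from the sample titles, which name no common day, and of the 6 differently numbered pairs, A1 with B9 gave 0.648, A6 with B5 gave 0.613 and the other 4 ran from -0.75 to -0.666.

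The genes named were, per complex, those with the highest mean and the highest and lowest fold change, members whose groups did not overlap, isoform partners, the assembly factors with the highest and lowest fold change, members below the minimum, and up to 2 of the most abundant genes of each other list. Ndufv1, Sdha, Atp5f1, Atp5g2, Ndufa10, Ndufb10, the muscle genes other than Tnnt2 and Tnni2, and the genes used to check the tissue were named after their values were seen. The members, the lists and the tests were chosen with earlier results of these data known. Alternatives were a pseudocount of 0.1, no minimum, eBayes with no trend, a replicate block, median-of-ratios scaling, rows of a symbol summed, and each tumor left out in turn. Leaving out both tumors numbered 3, and counting mature subunits with Ndufa4 in complex IV, were added after the data were seen.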

Additional observations from a re-analysis of the deposited data

How the results depend on the processing

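No member passed the adjusted threshold under any alternative. The count of members lower with digitoxin (22) was 10 with median-of-ratios scaling, which also raised the median of every complex (0.37 for I, 0.28 for II, 0.27 for III, 0.45 for IV and 0.36 for V), and it ran from 20 to 32 with 1 tumor left out. Members with an unadjusted p under 0.05 by limma (0 of 85) numbered 1 with the replicate block, beside 447 of 10742 rows. They numbered 6 without both tumors numbered 3, beside 1202 of 10758 rows, and 0 to 8 with 1 tumor left out. Without A12 they were 8 (Cox4i2, Cox6a2, Ndufa10l1, Ndufaf4, Ndufb10, Ndufs1, Ndufs7 and Uqcrc2), beside 2128 of 10774 rows. Without B14 there was 1 (Ndufa4l2), beside 54 of 10739 rows. Without A12, and without both tumors numbered 3, the share of members called was below that of all rows. With the block, no member and no other row passed the adjusted threshold. Rows past the adjusted threshold (0) ran from 0 to 2, with 2 without B14, and numbered 2 without both tumors numbered 3. Rows at an unadjusted p under 0.05 (36) were 447 with the replicate block and 130 with no minimum. They were 13 without A6, 2128 without A12, 19 without B5, 11 without B9, 54 without B14 and 1202 without both tumors numbered 3.

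With 1 tumor left out, median fold changes ran from 0.030 to 0.34 for complex I, -0.094 to 0.20 for II, -0.051 to 0.23 for III, 0.085 to 0.36 for IV and 0.055 to 0.25 for V, and the difference in share of all FPKM from -0.0175 to 0.297 points. Directions turned with 1 tumor left out for Cox6b2 (-0.28 to 0.90), Cox6c (-0.040 to 0.57), Cox7a2 (-0.022 to 0.33), Cox7b (-0.30 to 0.25), Cox8b (-0.32 to 2.77), Ndufa4 (-0.48 to 0.22), Sdhd (-0.063 to 0.11) and Uqcrh (-0.022 to 0.67). With median-of-ratios scaling Cox7b (0.13), Ndufa4 (0.091) and Sdhc (0.053) turned, and without both tumors numbered 3 Cox7a2 (-0.10), Sdhd (-0.022), the complex III median (-0.096) and the difference in share (-0.0268 points). Mature subunits alone differed by 0.0993 points in share of all FPKM (0.0943 for all members). The cause of these changes was not tested. With 3 tumors per group and no counts, the precision of low FPKM is unknown.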
